A study of Mus musculus with 8 samples.

Results

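The set described here holds the G1 cyclin-dependent kinases *Cdk2*, *Cdk4* and *Cdk6* together with the genes of CDK inhibitors and of a CDK phosphatase (*Cdkn1b*, *Cdkn1c*, *Cdkn2a*, *Cdkn2b*, *Cdkn2c*, *Cdkn2d* and *Cdkn3*). The members were taken by gene name from the count table, and all 10 names were found among its 54532 genes. RNA was measured by bulk RNA-seq of mouse retina in 4 *Mettl3*-CKO samples and 4 control samples. *Mettl3* encodes the catalytic subunit of the complex that writes the m6A mark on RNA. The *Mettl3*-CKO mice were *Six3-Cre*+; *Mettl3* floxed/floxed, in which Cre acts in retinal progenitor cells (RPCs). The samples of the other group are labelled as controls, and whether they were littermates is not stated for this experiment. The study describes efficient deletion in the central retina, so tissue that keeps the gene can be part of a sample. The labels give the age as postnatal day 7 for both groups, while the methods give an age 1 day earlier. The comparison asks how the RNA of the retina differs once *Mettl3* has been removed from its RPCs.

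In G1, D-type cyclins bind CDK4 or CDK6, and E-type cyclins bind CDK2. These kinases phosphorylate the retinoblastoma protein and its relatives, which releases the E2F factors that turn on genes of DNA replication. Ink4 inhibitors (*Cdkn2a*, *Cdkn2b*, *Cdkn2c* and *Cdkn2d*) bind CDK4 and CDK6 alone, whereas Cip/Kip inhibitors (*Cdkn1a*, *Cdkn1b* and *Cdkn1c*) bind whole cyclin-CDK complexes. In the retina, p27 (*Cdkn1b*) and p57 (*Cdkn1c*) are known for the exit of RPCs from the cell cycle, and p27 also for keeping Müller glia quiescent.

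Of the 10 members, 2 fell and 1 rose when *Mettl3*-CKO was compared with control, with an adjusted p under 0.05 (edgeR quasi-likelihood test, Benjamini-Hochberg adjustment over 17998 genes tested). Both Cip/Kip inhibitors of the set fell: *Cdkn1b* with a log2 fold change of -0.38 (SE 0.09) and *Cdkn1c* with one of -0.39 (SE 0.09). The Ink4 inhibitor *Cdkn2d* rose, with a log2 fold change of 0.46 (SE 0.14). Of the 3 kinases 0 passed with edgeR or limma voom and 1, *Cdk2*, with DESeq2, and 1 of the 3 had an unadjusted p under 0.05. As background, 10.5% of all genes tested were called, 6.49% as higher and 4.05% as lower, and 3 of 10 members is read against that share. All 10 members passed the filter on low counts.

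Counts here are reads assigned to a gene, and CPM is the count scaled to 1000000 reads, with library totals adjusted by TMM. Total counts ranged from 16227095 to 19310791 in control samples and from 17290701 to 20281517 in *Mettl3*-CKO samples, and 3 counts correspond to 0.148 to 0.185 CPM before that adjustment. *Mettl3* itself lay at 21.1 to 29.6 CPM in *Mettl3*-CKO samples and at 29.3 to 33.8 CPM in controls, and the groups overlapped (log2 fold change -0.38, SE 0.12, adjusted p = 0.0602 from edgeR). Rod markers, summed over 9 genes, reached 1651 to 4863 CPM over the 8 samples labelled retina. A pair of control samples stood apart. Control replicate 4 held 3058 CPM summed over 10 lens genes, against at most 55.7 CPM in every other sample. Control replicate 1 had the highest rod sum (4863 CPM) and the lowest proliferation sum (1585 CPM). Without both of these controls the members gave the same counts of calls, 1 higher and 2 lower. The labels do not say whether replicates are separate animals. The paper states at least 3 biological replicates for experiments given statistics, without describing the animals behind each RNA-seq sample. The p-values measure the spread between these samples, which may in part be technical. In whole tissue, fewer cells of a type and less RNA per cell cannot be told apart.

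*Cdkn1b*, on chromosome 6 (GRCm38, chr6:134920401-134925513, plus strand, ENSMUSG00000003031), encodes p27, which binds cyclin E-CDK2 and cyclin A-CDK2 and blocks them. The promoters of *Cdkn1b* and *Cdk2* are shown because these were a member that fell and the kinase whose groups did not overlap. Each line gives the 250 bases before the RefSeq start (GRCm38.p6), read on the strand of the gene, chr6:134920151-134920400 on the plus strand for *Cdkn1b* and chr10:128705052-128705301 on the minus strand for *Cdk2*. Capitals mark E2F letters (TTTCCCGC, TTTCGCGC, TTTGCCGC or TTTGGCGC), GC boxes (GGGCGG) and CCAAT boxes (CCAAT), each searched on both strands.
Cdkn1b: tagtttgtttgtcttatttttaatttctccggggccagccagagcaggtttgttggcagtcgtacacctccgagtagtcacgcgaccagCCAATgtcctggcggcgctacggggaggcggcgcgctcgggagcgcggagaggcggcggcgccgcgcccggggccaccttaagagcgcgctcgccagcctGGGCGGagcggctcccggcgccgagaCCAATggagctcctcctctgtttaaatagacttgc
Cdk2: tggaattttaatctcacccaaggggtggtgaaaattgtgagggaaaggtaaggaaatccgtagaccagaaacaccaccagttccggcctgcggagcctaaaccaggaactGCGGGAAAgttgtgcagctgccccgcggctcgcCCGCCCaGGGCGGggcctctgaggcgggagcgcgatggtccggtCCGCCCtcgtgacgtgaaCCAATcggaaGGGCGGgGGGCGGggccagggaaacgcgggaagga

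Among 32851 promoters of this length, 1.86% held one of the E2F strings, 32.7% a GC box and 33.9% a CCAAT box. The *Cdk2* promoter held an E2F string that begins 140 bases before the start, 5 GC boxes and 1 CCAAT box. The *Cdkn1b* promoter held 1 GC box and 2 CCAAT boxes and none of the E2F strings. Promoter entries were matched for 9 of the 10 members, with 11 windows, and *Cdkn1c* was not among them. An E2F string was present in *Cdk2* and in the distal promoter of *Cdkn2a*, 99 bases before that start. GC boxes were found in 7 of these 9 genes and CCAAT boxes in 4 (*Cdk2*, *Cdkn1b*, *Cdkn2d* and *Cdkn3*), which is 7 and 4 of the 11 windows. The windows with a GC box held 60 to 78.4% G and C, against a median of 52.4% over all promoters. The cell cycle homology region (CHR, TTTGAA), present in 16% of all promoters, was found in *Cdkn2b* and *Cdkn3*. These are matches of letters, with no measurement of binding behind them.

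Values of single samples are given in the order of replicates 1 to 4. *Cdkn1b* stood at 166.6, 201.7, 173.7 and 176.1 CPM in the *Mettl3*-CKO group and at 258.3, 235.1, 221.9 and 219.9 CPM in the control group. Every *Mettl3*-CKO sample was below every control, and control replicate 1 was the highest of all. On average this was 179.5 ± 15.3 against 233.8 ± 17.6 CPM (SD, n = 4 each). The log2 fold change was -0.38 (95% interval -0.57 to -0.19, adjusted p = 0.0163 from edgeR), so the level fell by 23.2%. When each sample was left out in turn, the log2 fold change stayed between -0.44 and -0.33 and the call held in 7 of 8 fits. It was lost without *Mettl3*-CKO replicate 1 (adjusted p = 0.0663, with a lowest value of 0.00871 over these fits).

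*Cdkn1c*, which encodes p57, the Cip/Kip inhibitor whose gene is imprinted and read from the maternal copy, lies on chromosome 7 (GRCm38, chr7:143458339-143461050, minus strand, ENSMUSG00000037664). Its level was 27.6, 25.2, 29.1 and 31.6 CPM in the *Mettl3*-CKO group and 35.7, 35.6, 39.2 and 38.2 CPM in the controls. The groups did not overlap here either, and the highest *Mettl3*-CKO value was that of replicate 4. The means were 28.4 ± 2.69 and 37.2 ± 1.82 CPM (SD, n = 4 each), with a log2 fold change of -0.39 (95% interval -0.59 to -0.19, adjusted p = 0.0197 from edgeR), and the level fell by 23.7%. The call held in 4 of 8 fits with 1 sample left out. It was lost without *Mettl3*-CKO replicate 1 (adjusted p = 0.0760), *Mettl3*-CKO replicate 3 (0.0517), control replicate 3 (0.0599) or control replicate 4 (0.0547), while the log2 fold change stayed between -0.44 and -0.34.

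The fold changes of *Cdkn1b* and *Cdkn1c* lay close together. The log2 ratio of *Cdkn1c* to *Cdkn1b*, taken on FPKM (CPM per kilobase of gene, without TMM scaling) within each sample, was -1.50 ± 0.23 in *Mettl3*-CKO and -1.49 ± 0.17 in control samples (SD, n = 4 each). The difference of -0.01 was far inside the spread between samples (p = 0.971, two-sided exact permutation test, adjusted p = 0.971 over 3 ratios), and the smallest p this design allows is 0.0286.

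The Ink4 inhibitor *Cdkn2d*, on chromosome 9 (GRCm38, chr9:21288410-21291407, minus strand, ENSMUSG00000096472), encodes p19Ink4d, which together with p27 is known for holding neurons out of the cell cycle. It measured 56.7, 40.1, 45.4 and 46.4 CPM in the *Mettl3*-CKO group and 43.4, 32.0, 28.6 and 32.8 CPM in the controls. The groups overlapped in 1 place, since control replicate 1 lay above *Mettl3*-CKO replicate 2. The means were 47.2 ± 6.95 and 34.2 ± 6.38 CPM (SD, n = 4 each), a rise of 37.9% (log2 fold change 0.46, 95% interval 0.17 to 0.76, adjusted p = 0.0477 from edgeR). This call sat at the threshold. It held without *Mettl3*-CKO replicate 2 or control replicate 1 and was lost in the other 6 fits with 1 sample left out. Those were the fits without *Mettl3*-CKO replicate 1 (adjusted p = 0.158), replicate 3 (0.0822) or replicate 4 (0.0852) and without control replicate 2 (0.122), replicate 3 (0.117) or replicate 4 (0.112). The log2 fold change ranged from 0.37 to 0.60 over these 8 fits.

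*Cdkn2c* encodes p18Ink4c, an inhibitor of CDK4 and CDK6 that is found in many dividing precursor cells, and lies at chr4:109660876-109667189 on the minus strand (ENSMUSG00000028551). It stood at 76.5, 80.6, 68.9 and 61.6 CPM in the *Mettl3*-CKO group and at 46.4, 66.4, 59.8 and 54.2 CPM in the controls. Only *Mettl3*-CKO replicate 4 lay within the control range. The means of 71.9 ± 8.40 and 56.7 ± 8.45 CPM (SD, n = 4 each) gave a log2 fold change of 0.34 (95% interval 0.08 to 0.60), which did not pass (adjusted p = 0.0907 from edgeR). With other tests, scalings, filters or the replicate block on all 8 samples, its adjusted p stayed between 0.0524 and 0.0968, and with 1 sample left out it ranged from 0.0673 to 0.247. Without control replicates 1 and 4 together the log2 fold change was 0.19 (adjusted p = 0.332). The log2 ratio of *Cdkn2c* to *Cdkn2d* differed by -0.12 between the groups (p = 0.629, two-sided exact permutation test, n = 4 each, adjusted p = 0.971), so no unequal change of the pair was detectable.

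The other Ink4 genes were close to the floor of detection. *Cdkn2a* lies at chr4:89274471-89294653 on the minus strand (ENSMUSG00000044303) and is annotated with 2 transcripts, those of p16Ink4a and of Arf, which start from different first exons and cannot be separated in counts per gene. It had 10 to 28 counts per *Mettl3*-CKO sample and 10 to 24 per control sample. Its level was 0.553, 1.62, 1.17 and 1.37 CPM in the *Mettl3*-CKO group and 1.28, 1.47, 0.525 and 0.665 CPM in the controls. The groups were interleaved, and the log2 fold change of 0.26 had a 95% interval from -0.61 to 1.14 (adjusted p = 0.749 from edgeR).

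*Cdkn2b*, the neighbour of *Cdkn2a* at chr4:89306299-89311039 (minus strand, ENSMUSG00000073802), encodes p15Ink4b, an inhibitor induced by TGF-beta in many cells. It had 5 to 13 counts per *Mettl3*-CKO sample and 10 to 21 per control sample, or 0.387, 0.638, 0.266 and 0.635 CPM against 0.535, 1.16, 1.10 and 1.03 CPM in replicates 1 to 4. Control replicate 1 lay among the *Mettl3*-CKO samples, and the other controls were above all of them. The log2 fold change was -0.97 (95% interval -1.81 to -0.13) and did not pass (adjusted p = 0.139 from edgeR). Without control replicate 1 it was -1.17 and passed (adjusted p = 0.0374), and over the 8 fits with 1 sample left out the adjusted p ranged from 0.0374 to 0.321.

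*Cdkn3* is named with the inhibitors, yet its protein is a phosphatase that removes the activating phosphate from CDK2 and peaks around mitosis. The gene lies at chr14:46760541-46771669 on the plus strand (ENSMUSG00000037628). It measured 9.62, 8.46, 9.51 and 7.18 CPM in the *Mettl3*-CKO group and 7.28, 8.94, 8.08 and 7.92 CPM in the controls. The lowest value of all belonged to *Mettl3*-CKO replicate 4 and the highest to *Mettl3*-CKO replicate 1, so the groups overlapped throughout (log2 fold change 0.11, 95% interval -0.19 to 0.41, adjusted p = 0.686 from edgeR).

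**Figure D1:**
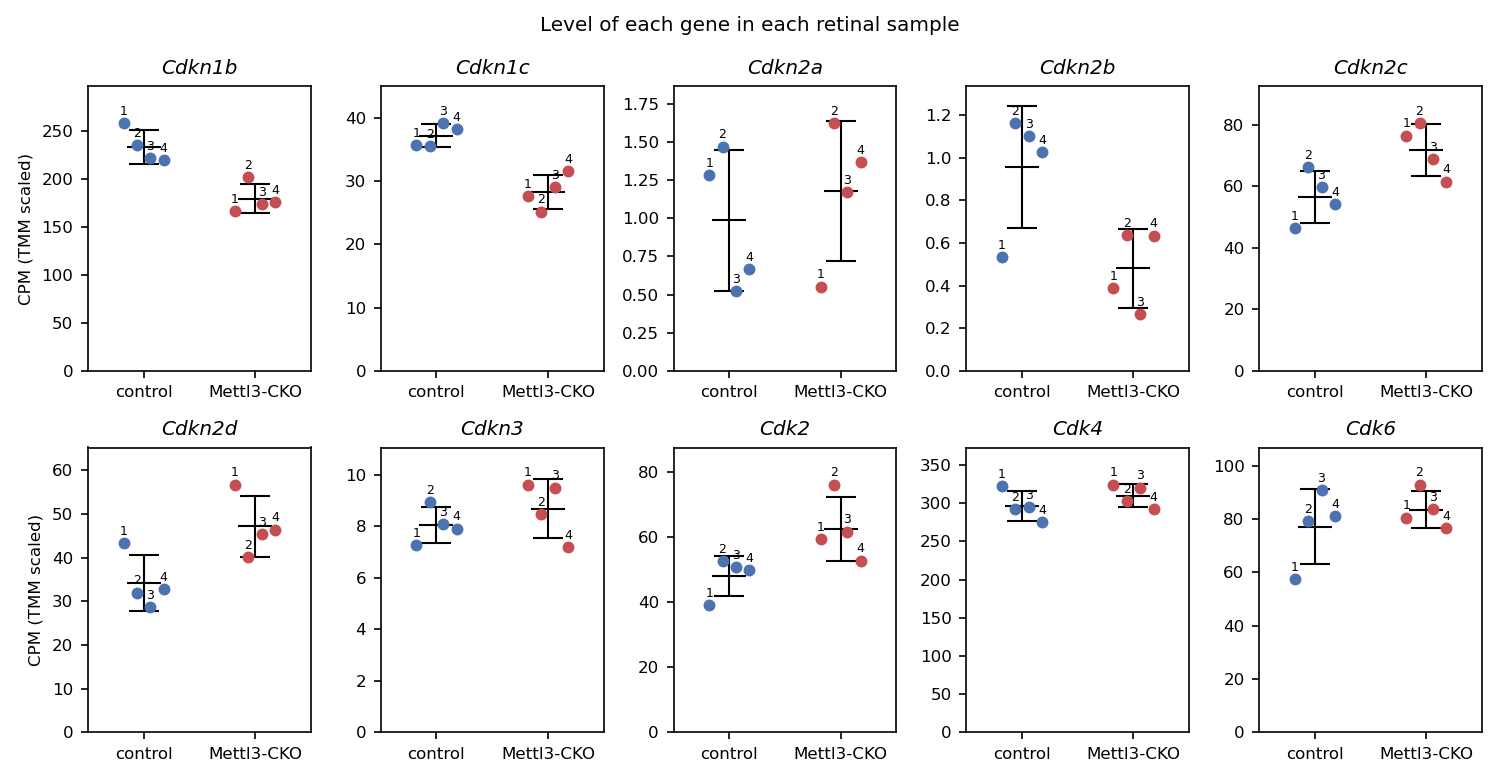
Each panel plots 1 gene, with CPM after TMM scaling on the vertical axis from 0 and the control (blue) and *Mettl3*-CKO (red) samples numbered by replicate, and black bars give the mean and SD of 4 samples. *Cdkn1b*, *Cdkn1c* and *Cdk2* are the 3 panels in which the groups do not overlap, the *Cdk2* groups by the small gap between 52.7 and 52.8 CPM.

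Among the kinases, *Cdk2* came closest to the threshold. It lies at chr10:128697939-128705031 on the minus strand (ENSMUSG00000025358) and encodes the partner of cyclins E and A. Its level was 59.4, 76.1, 61.7 and 52.8 CPM in the *Mettl3*-CKO group and 39.1, 52.7, 50.7 and 49.8 CPM in the controls. The groups did not overlap, but *Mettl3*-CKO replicate 4 was only just above control replicate 2. The means were 62.5 ± 9.83 and 48.1 ± 6.09 CPM (SD, n = 4 each), with a log2 fold change of 0.38 (SE 0.12, 95% interval 0.11 to 0.65, adjusted p = 0.0724 from edgeR). The call depended on the method. *Cdk2* passed with DESeq2 (adjusted p = 0.0358), without the filter on low counts (0.0321) and with the replicate number as a block (0.0477), and over all 6 settings that kept the 8 samples its adjusted p ranged from 0.0321 to 0.0807. In the fits with 1 sample left out it passed in 0 of 8, with adjusted p from 0.0517 to 0.191. Exons of *Cdk2* share 34 bases with *Pmel*, a pigment cell gene on the opposite strand, and whether strand was used in counting is not given in the sources used here. *Pmel* fell, with 36.5 to 50.9 CPM in controls and 22 to 33.8 CPM in *Mettl3*-CKO samples (log2 fold change -0.66, SE 0.14, adjusted p = 0.0117 from edgeR).

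*Cdk4*, the main partner of the D-type cyclins (chr10:127063534-127067920, plus strand, ENSMUSG00000006728), differed little. It stood at 324.1, 302.4, 320.3 and 291.9 CPM in the *Mettl3*-CKO group and at 321.9, 292.0, 294.7 and 275.4 CPM in the controls. The groups lay over each other. The log2 fold change was 0.07 with a 95% interval of -0.11 to 0.24 (adjusted p = 0.675 from edgeR), which is the narrowest interval among the 10 members. Exons of *Cdk4* share 641 bases with *Tspan31* on the opposite strand, whose log2 fold change was -0.15 (SE 0.10, adjusted p = 0.414 from edgeR).

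*Cdk6*, the other partner of the D-type cyclins (chr5:3341485-3531008, plus strand, ENSMUSG00000040274), measured 80.6, 93.0, 83.9 and 76.6 CPM in the *Mettl3*-CKO group and 57.6, 79.4, 91.0 and 81.0 CPM in the controls. Control replicate 1 was well below the other 7 samples, which overlapped. The log2 fold change of 0.11 (95% interval -0.16 to 0.39, adjusted p = 0.642 from edgeR) rested on that sample and was -0.00497 without it (adjusted p = 0.978, in a range of 0.412 to 0.978 over the 8 fits with 1 sample left out). The log2 ratio of *Cdk6* to *Cdk4* within a sample differed by 0.06 between the groups (p = 0.886, two-sided exact permutation test, n = 4 each, adjusted p = 0.971). *Cdk6* shares 368 exon bases with *Gm17590*, which had 35 counts in all, and *Cdkn1c* shares 625 with *Gm44732*, which had 1 count in all.

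**Figure D2:**
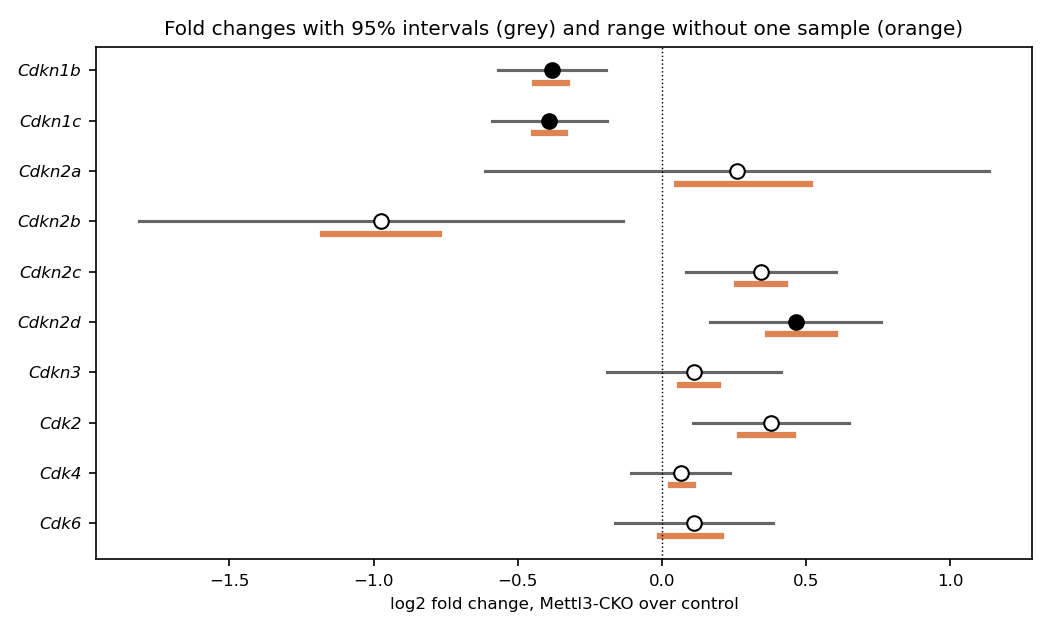
For each member the horizontal axis gives the log2 fold change of *Mettl3*-CKO over control from edgeR, with its 95% interval in grey and, in orange, the range of the fold change over 8 fits that each leave out 1 sample. Filled points passed an adjusted p of 0.05, and the intervals of *Cdkn2a* and *Cdkn2b*, the genes with the fewest counts, are the widest.

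Taking the members as a list, 7 of 10 had a positive log2 fold change, with a median of 0.11 against -0.01 over all genes tested. The median size of the change, regardless of sign, was 0.36 against 0.18. The groups did not overlap for 3 members (2 lower and 1 higher), against 17.4% of all genes tested. An unadjusted p under 0.05 was found for 6 members, against 24.6% of all genes tested, namely *Cdkn1b*, *Cdkn1c*, *Cdkn2b*, *Cdkn2c*, *Cdkn2d* and *Cdk2*. DESeq2 called 14.2% of the 17609 genes to which it gave an adjusted p, and among the members it called *Cdk2* in addition to the 3 named above.

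Levels of different genes were compared on the FPKM scale, which divides by gene length. That length includes 625 of 2039 bases of *Cdkn1c* and 641 of 3249 bases of *Cdk4* that are shared with a gene on the opposite strand. If reads there were left out of the counts, the FPKM of these genes would be too low, which was not tested. The same limit holds for the sums and shares of FPKM below. In control retinas *Cdk4* was the most abundant member at 90.5 ± 4.32 FPKM (SD, n = 4), followed by *Cdkn1b* at 51.0 ± 3.03 FPKM. *Cdkn2d* (21.6 FPKM), *Cdkn2c* (21.0 FPKM) and *Cdkn1c* (18.1 FPKM) came next, and the ranges of each neighbouring pair among these overlapped. *Cdk2* (7.70 FPKM) and *Cdk6* (5.5 FPKM) also overlapped, *Cdkn3* stood apart at 3.38 FPKM, and *Cdkn2a* (0.835 FPKM) and *Cdkn2b* (0.687 FPKM) overlapped at the bottom.

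The order of the means was the same in *Mettl3*-CKO retinas, but the distances differed. *Cdkn1b* stood at 39.5 FPKM, closer to *Cdkn2d* at 30.0 FPKM and *Cdkn2c* at 26.8 FPKM, while *Cdkn1c* at 13.9 FPKM no longer overlapped *Cdkn2c*. *Cdkn2d* and *Cdkn2c* were the only neighbours whose ranges overlapped in this group. *Cdk4* was at 95.4, *Cdk2* at 10.1, *Cdk6* at 5.97, *Cdkn3* at 3.67, *Cdkn2a* at 1.01 and *Cdkn2b* at 0.347 FPKM.

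FPKM was added up within each sample over the 6 inhibitor genes of the set, which hold 2 of the 3 Cip/Kip genes, since *Cdkn1a* is not a member. Together they gave 111.6 ± 4.11 FPKM in *Mettl3*-CKO and 113.3 ± 4.12 FPKM in control samples (SD, n = 4 each), and these sums overlapped. The Cip/Kip genes *Cdkn1b* and *Cdkn1c* gave 53.4 ± 2.70 against 69.2 ± 2.0 FPKM. The 4 Ink4 genes gave 58.2 ± 5.17 against 44.1 ± 2.61 FPKM, of which *Cdkn2c* and *Cdkn2d* made up 97.6% and 96.6%. The Cip/Kip share of the 6 genes was 43.4, 49.7, 48.5 and 50.1% in the *Mettl3*-CKO group and 61.6, 59.4, 62.0 and 61.3% in the controls. No *Mettl3*-CKO share reached the control range. *Cdkn2d* stood at 0.985, 0.575, 0.756 and 0.762 of the *Cdkn1b* level in the *Mettl3*-CKO group and at 0.486, 0.394, 0.373 and 0.431 in the controls. This ratio was not among those set for testing, and it sets a member called higher against one called lower. The 3 kinases summed to 111.5 ± 4.77 against 103.7 ± 3.07 FPKM, with *Cdk4* at 85.6% and 87.3% of the sum. These sums, shares and the ratio describe members whose own tests are given above, and no test was run on them. Their separation follows largely from those calls and adds no support to them. With *Cdkn1a* added (21.9 ± 4.55 against 8.64 ± 0.803 FPKM), most of the difference in the Cip/Kip sum was gone, at 75.3 ± 2.04 in *Mettl3*-CKO and 77.8 ± 2.22 FPKM in control samples, and the ranges overlapped. The sum over all 7 inhibitor genes was then 133.5 ± 7.11 against 121.9 ± 4.4 FPKM, without overlap. The Cip/Kip share of it was 54.4 to 57.6% against 62.3 to 64.4%, a smaller gap than without *Cdkn1a*.

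**Figure D3:**
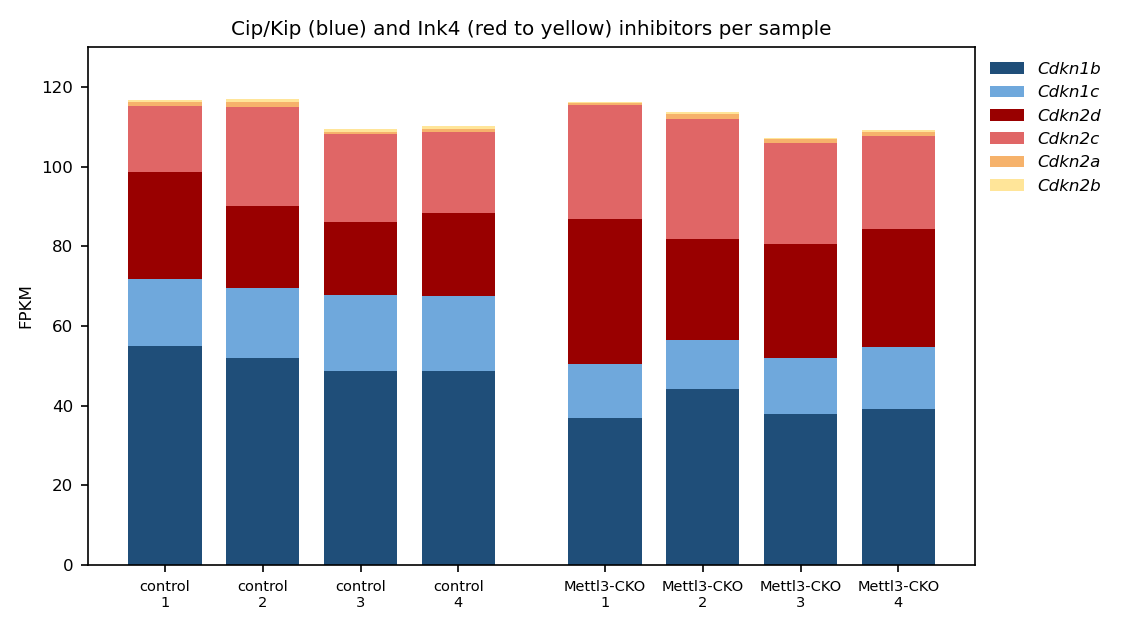
Stacked bars give FPKM, counted from 0, of 2 Cip/Kip genes (blue, *Cdkn1a* not drawn) and the 4 Ink4 genes (red to yellow) in each of the 8 samples. The full height is alike in both groups, at 107.2 to 117.0 FPKM, while the blue portion is 67.5 to 71.9 FPKM in controls and 50.5 to 56.5 FPKM in *Mettl3*-CKO samples.

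For each member that passed the test, the genes with the most similar pattern were found as the smallest root mean square difference of centred log2 CPM over the 8 samples, among 11373 genes. For *Cdkn1b* these were *Cald1* (0.0437), *Dyrk2* (0.0472) and *Coq10a* (0.0479), where the median for *Cdkn1b* was 0.259. For *Cdkn1c* they were *Ulk4* (0.0485), *Lrrc4* (0.0525) and *Limch1* (0.0581), and for *Cdkn2d* they were *D030056L22Rik* (0.0581), *Nck1* (0.0688) and *Ak1* (0.0781). The medians over all genes compared were 0.270 for *Cdkn1c* and 0.337 for *Cdkn2d*. The 8 samples hold both groups, so part of each likeness is the group difference itself.

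Some cell type markers also differed between the groups. Of 14 proliferation markers tested, 5 rose (*Mki67*, *Rrm2*, *Mcm2*, *Mcm3* and *Mcm5*) and 0 fell, and their sum was 2131 to 2837 CPM in *Mettl3*-CKO against 1585 to 2030 CPM in control samples. Of 9 rod markers, 6 fell and 0 rose, with sums of 1651 to 3025 CPM against 3154 to 4863 CPM. Of 9 Müller glia markers tested, 1 rose and 2 fell, with overlapping sums of 2207 to 2381 and 2257 to 2915 CPM. Neither the proliferation nor the rod sums overlapped between groups. Of other cell types, 5 of 7 endothelial, 1 of 3 astrocyte and 2 of 3 erythrocyte genes fell, and of 5 pigment epithelium genes 3 fell and 1 rose. With limma voom 3 endothelial genes were called. The endothelial sums overlapped, at 539.8 to 636.4 CPM in *Mettl3*-CKO and 548.3 to 651 CPM in control samples. Most of these sums was *Kdr*, with means of 558.1 and 549.4 CPM, so their overlap says little about the endothelial genes that fell. For lens, edgeR called 3 of 5 genes lower. Control replicate 4, at 3058 CPM in sum, and control replicate 1, at 55.7 CPM, lay above the *Mettl3*-CKO range of 4.70 to 16 CPM. Control replicates 2 and 3, at 6.74 and 4.09 CPM, lay within or below it. Whether the lens calls rest on control replicate 4 alone was not tested. Of the remaining lists, 1 of 4 bipolar and 1 of 6 amacrine genes fell, 1 of 5 horizontal and 1 of 6 ganglion genes rose, and 0 of 5 cone and 0 of 6 microglia genes were called by edgeR, with 1 gene of each at an unadjusted p under 0.05. DESeq2 called 1 cone gene (*Arr3*) and 0 microglia genes, limma voom called 0 of either, and both called 0 of the lens genes. None of the 14 marker lists held a gene at 0 in all samples. The part of these differences in the changes of *Cdkn1b*, *Cdkn1c* and *Cdkn2d* was not tested.

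Control replicate 1 stood at the edge of its group for most members. Beside its extreme rod and proliferation sums, it had the highest *Cdkn1b*, *Cdkn2d* and *Cdk4* and the lowest *Cdkn2b*, *Cdkn2c*, *Cdkn3*, *Cdk2* and *Cdk6* among the 4 controls. Without it the log2 fold change of *Cdkn1b* was -0.33 and that of *Cdkn2d* was 0.60.

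The genes that act with the members were followed in 6 lists of 67 genes in all, of which 66 were tested. Of these, 5 rose, 1 fell and 60 did not pass, so that 9.09% were called, close to the 10.5% of all genes tested, and the median log2 fold change was -0.00239, against -0.01 over all genes tested.

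The largest of these changes was that of *Cdkn1a*, which encodes p21, the Cip/Kip inhibitor induced by p53. It stood at 98.3, 62.0, 82.0 and 68.8 CPM in the *Mettl3*-CKO group and at 32.1, 31.2, 26.9 and 33.4 CPM in the controls, so that every *Mettl3*-CKO value was above every control. It rose with a log2 fold change of 1.33 (SE 0.14, adjusted p = 0.000227 from edgeR), opposite in direction to *Cdkn1b* and *Cdkn1c*. In the list of regulators, *Trp53*, which encodes p53, was 48.1 to 59.7 CPM in *Mettl3*-CKO and 61.2 to 76.6 CPM in control samples. Its log2 fold change was -0.28 (adjusted p = 0.103 from edgeR) and that of *Mdm2* was 0.03 (adjusted p = 0.883), so neither passed. The part of p53 in the rise of *Cdkn1a* was not tested. *Cdkn1a* was the 1 gene called among 8 kinase activators and inactivators, a list that also held the CDK-activating kinase (*Cdk7*, *Ccnh* and *Mnat1*).

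Among 12 ubiquitin ligase genes in a list drawn up around the turnover of p27, 3 rose and 1 fell. The list also holds genes not known chiefly for p27, *Dtl* among them. *Cks1b*, the cofactor that lets the SKP2 ligase recognise p27, was 39.2 to 50.5 CPM in *Mettl3*-CKO and 28.8 to 31.3 CPM in control samples (log2 fold change 0.60, SE 0.10, adjusted p = 0.00308 from edgeR). *Skp2*, the substrate receptor for p27 itself, was 61.3 to 63.4 CPM against 38.0 to 51.8 CPM (log2 fold change 0.45, SE 0.10, adjusted p = 0.0126 from edgeR). Neither range overlapped, and both rises ran opposite to the fall of *Cdkn1b* RNA. This ligase acts on p27 protein, which was not measured here. *Dtl*, the substrate receptor of the CUL4 ligase in S phase, was 55.9 to 74.3 CPM against 23.0 to 45.5 CPM (log2 fold change 0.88, SE 0.18, adjusted p = 0.00865 from edgeR). *Ddb1*, the adaptor of the same ligase, fell (log2 fold change -0.29, SE 0.08, adjusted p = 0.0427 from edgeR). With 1 sample left out, *Cks1b*, *Dtl* and *Cdkn1a* were called in 8 of 8 fits and *Skp2* in 7, the exception being the fit without *Mettl3*-CKO replicate 1 (adjusted p = 0.0525). *Ddb1* was called in 2 of these 8 fits, those without control replicate 1 and without control replicate 4, with an adjusted p of up to 0.125.

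Of the 6 cyclin partners, *Ccne1*, the cyclin E that activates CDK2, rose. It measured 22.4, 22.1, 24.2 and 15.2 CPM in the *Mettl3*-CKO group and 11.7, 16.7, 14.4 and 14.0 CPM in the controls, and only *Mettl3*-CKO replicate 4 lay within the control range. The log2 fold change was 0.56 (SE 0.15, adjusted p = 0.0365 from edgeR). The call was lost without *Mettl3*-CKO replicate 1, 2 or 3 or control replicate 3 or 4, with an adjusted p of up to 0.124, and also without control replicates 1 and 4 together (adjusted p = 0.122), and with limma voom. *Ccne2*, the other cyclin E gene, did not pass (log2 fold change 0.33, adjusted p = 0.0812 from edgeR). Its groups did not overlap, at 25.8 to 31.0 CPM in *Mettl3*-CKO and 19.1 to 25.6 CPM in control samples. Of the 6 cyclin partners, 3 had an unadjusted p under 0.05. The other lists had 0 calls with edgeR and 0 with limma voom. An unadjusted p under 0.05 was found for 4 pocket protein and E2F genes, 1 other CDK and 2 regulators of the inhibitors, and DESeq2 called 0, 1 (*Cdk1*) and 1 (*Hes1*) of them. The most abundant genes of these lists, with adjusted p from edgeR, were *Tfdp2* (log2 fold change 0.13, adjusted p = 0.436) and *Tfdp1* (0.17, adjusted p = 0.174) among 13 pocket proteins and E2F genes, *Cdk16* (-0.16, adjusted p = 0.295) and *Cdk14* (0.00, adjusted p = 0.995) among 14 other CDKs tested, and *Foxo3* (-0.04, adjusted p = 0.883) and *Mycn* (-0.16, adjusted p = 0.208) among 13 regulators of the inhibitor genes.

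**Figure D4:**
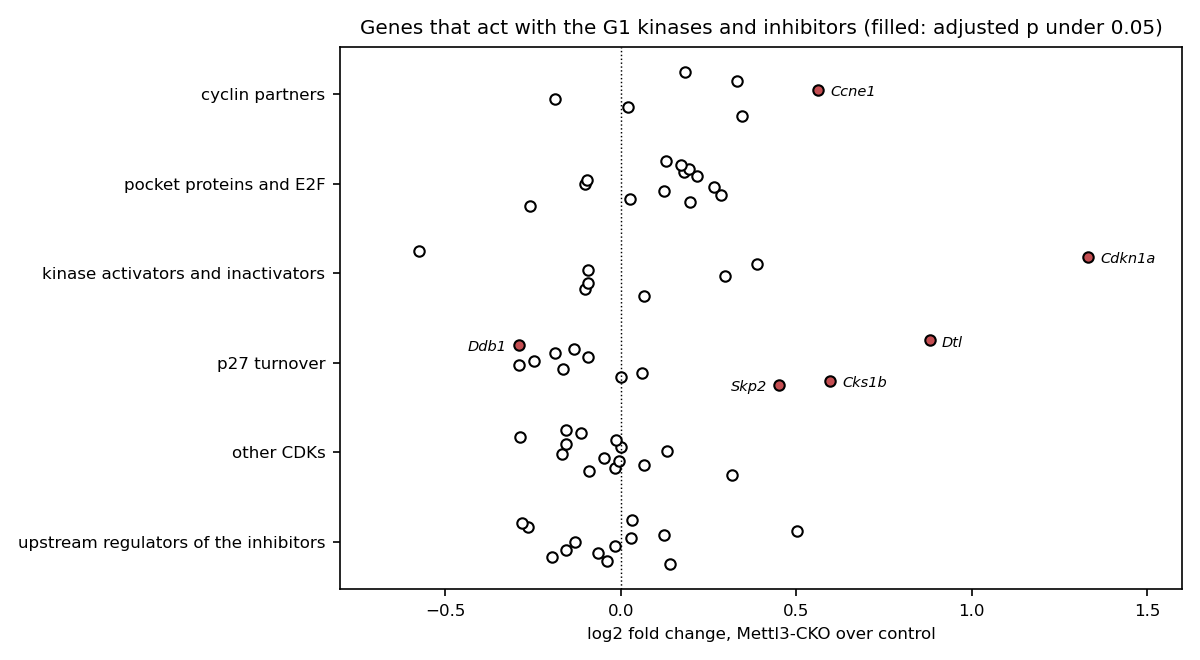
Each point is 1 of 66 tested genes in 6 lists, placed on the horizontal axis by its log2 fold change of *Mettl3*-CKO over control, and filled points passed an adjusted p of 0.05 with edgeR. The 6 filled points are *Ccne1*, *Cdkn1a*, *Skp2*, *Cks1b*, *Dtl* and, to the left of 0, *Ddb1*.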

How the data were processed

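Per the labels and the methods, the authors made libraries from total RNA with the NEBNext Ultra kit (use of strand not given in the sources used here), aligned the reads with HISAT2 to GRCm38 and obtained gene counts from featureCounts. The deposited table holds unnormalized counts for 8 samples, and the authors' gene lengths match the merged exons of GENCODE vM21 for all 10 members. The test was that of edgeR 4.0.16 in R 4.3.3 (filterByExpr by group with a minimum count of 10, TMM, quasi-likelihood test, Benjamini-Hochberg, threshold 0.05), where SE is the absolute log2 fold change over the square root of F. The common biological coefficient of variation was 15.0%. DESeq2 1.42.0 and limma 3.58.1 (voom), other scalings, no filter, a replicate block and left-out samples were alternatives. FPKM was computed from counts, lengths and totals. The procedure was also run on simulated data with planted changes larger than those of the called members. That run does not bear on calls of their size. Depth was 16227095 to 20281517 counts per sample.

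All members are named. In each list of related genes, up to 4 called genes with the smallest adjusted p are named or, with none called, the 2 with the highest mean CPM. For called members the 3 most similar genes are named, among genes with a mean log2 CPM of at least 3, as well as genes overlapping a member. *Cdk1*, *Hes1*, *Arr3*, *Trp53*, *Mdm2*, *Kdr* and *Ccne2* were named after their values were seen. Members, lists and the alternative without control replicates 1 and 4 were chosen with earlier results of these data known.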

Additional observations from a re-analysis of the deposited data

Results flagged for a closer look

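*Cdkn2b* in control replicate 1 lay far below the other controls. Its log2 CPM was -0.63, against 0.19 to 0.35 in the other 3, and the gap was 0.834 of the range of the group, above Dixon's 95% critical value for 4 samples. The value rests on 10 counts. Of 26 groups of 4 samples examined in this way, 1 stood out, and chance marks about 1 in 20, or 1.3 of 26.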

How the results depend on the processing

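Over 15 alternative settings, 148 of 150 fold changes of the 10 members kept their direction and 133 also their side of the threshold. *Cdkn1b*, *Cdkn1c* and *Cdkn2d* were called in all 6 alternatives that kept the 8 samples. The members called higher were 2 with DESeq2, without the filter and with the replicate block, where *Cdk2* passed as well. With 1 sample left out, the members called higher ranged from 0 to 1 and those called lower from 0 to 3. Over all genes these counts ranged from 509 to 1882 higher and from 185 to 1289 lower, and in the related lists from 3 to 7 higher and from 0 to 6 lower. Both ends over all genes were the fits without *Mettl3*-CKO replicate 1 and without control replicate 1. In the related lists, 0 genes were called lower without the filter and with the replicate block, and 2 without control replicates 1 and 4. *Cdk6* changed sign without control replicate 1 (log2 fold change -0.00497) and without control replicates 1 and 4 (-0.0316), with a range of -0.00497 to 0.20 when 1 sample was left out. The log2 ratio of *Cdk6* to *Cdk4* changed sign without *Mettl3*-CKO replicate 2 (-0.00136) and without control replicate 1 (-0.11, the range being -0.11 to 0.15), and that of *Cdkn1c* to *Cdkn1b* without *Mettl3*-CKO replicate 2 (0.10), control replicate 3 (0.04) or control replicate 4 (0.03), in a range of -0.0801 to 0.101. With 4 against 3 samples these exact tests cannot reach 0.05. The cause of these changes was not tested.

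The correlations of deviations between samples with the same replicate number were -0.11, 0.22, -0.11 and 0.25. The numbers were not taken to pair the samples, since 2 of 4 pairs were over 0.1, and in these 2 pairs both samples correlated best with their own number. Counting error limits *Cdkn2a* and *Cdkn2b*, which had at most 28 counts in a sample. Whole retina does not separate cell types.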
